A study of Mus musculus with 12 samples.

Results

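The genes described here are 10 markers of intestinal tuft cells and of the eicosanoid synthesis those cells carry out. They were listed by name, with earlier results of these data known, out of 55421 gene identifiers in a count table of mouse small intestine. They fall into a cell identity set (Dclk1, Trpm5, Pou2f3, Gfi1b), a leukotriene C4 set (Alox5, Alox5ap, Ltc4s), a prostaglandin set (Ptgs1, Hpgds) and the cytokine Il25. All 10 were in the table, and 8 passed the filter on low counts. Each of those 8 lay above the filter's level of 0.676 CPM (counts scaled to a common library size) in all 12 libraries, so none of them passed through a high group alone. Gfi1b and Il25 lay below that level in all 12 libraries.

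The study sequenced RNA of small intestine in 3 groups of 4 libraries. Apc Eif3h mice carry VilCreER Apc fl/fl Eif3h fl/fl, Apc mice carry VilCreER Apcfl/fl, and the third group is labelled Wild Type (WT). VilCreER is a tamoxifen-activated Cre recombinase driven by the promoter of villin, a gene of the gut epithelium, so immune, stromal and nerve cells of the tissue are not targeted. Tamoxifen was given in 2 injections of 80 mg/kg with 24 hours between them, and whether the WT mice carry the Cre is not stated in the labels. Apc encodes a scaffold protein that restrains Wnt signalling, and Eif3h encodes a subunit of the translation initiation factor eIF3. The sample labels give day 4 for Apc Eif3h and Apc and day 7 for WT, while the treatment protocol gives harvest after 7 days for all, so genotype and day cannot be told apart in any comparison with WT. All 4 Apc Eif3h libraries are from males, and Apc and WT each hold 3 males and 1 female. Ages are not given in the labels, nor whether the libraries of a group come from separate animals, and the p-values therefore cover only the variation among these libraries.

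Library totals were 14221414 to 21298301 counts in Apc Eif3h, 10483112 to 18621953 in Apc and 13915889 to 14589963 in WT. Eif3h RNA averaged 37.99 ± 13.4 CPM in Apc Eif3h, against 166 ± 7.01 CPM in Apc and 134 ± 6.60 CPM in WT (SD, n = 4 each). Its 4 Apc Eif3h libraries read 28.3, 43.1, 54.6 and 25.9 CPM, all below every library of the other groups. Apc RNA averaged 105 ± 12.01 CPM in Apc Eif3h, 114 ± 6.96 CPM in Apc and 94.2 ± 5.02 CPM in WT (SD, n = 4 each). The floxed part of Apc is not given in the labels, and a transcript that lacks an exon is still counted, so this level does not check the Apc labels. Replicate 2 of Apc Eif3h stood apart in B cell genes. Its summed level of 10 B cell markers was 1154 CPM, against 14.5 to 17.3 CPM in the other 3 Apc Eif3h libraries, 16.7 to 22.1 CPM in Apc and 29.3 to 163 CPM in WT. Where leaving out that library changed a call or sign of the 10 genes, the value is given beside the result or in the closing sections. It is also given for the Dclk1 and Hpgds folds and for counts of the further tuft, eicosanoid and type 2 lists that changed. Counts of the cell type lists were not made without that library.

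Tuft cells are rare chemosensory cells of the gut epithelium. The transcription factor POU2F3 is needed for them to form, GFI1B marks the lineage, the cation channel TRPM5 passes on taste-like receptor signals, and the kinase DCLK1 is the usual marker. When stimulated they release the cytokine IL-25, which acts on type 2 innate lymphoid cells, and those cells return IL-13 to the epithelium, where it favours more tuft and goblet cells. They also make lipid mediators from arachidonic acid. ALOX5 with its membrane partner ALOX5AP makes leukotriene A4, and LTC4S couples that to glutathione to give leukotriene C4, the first cysteinyl leukotriene. PTGS1, the constitutive cyclooxygenase, makes prostaglandin H2, and HPGDS turns it into prostaglandin D2. The leukotriene and prostaglandin D2 enzymes are also made by mast cells, macrophages and eosinophils.

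In GRCm38 with GENCODE M21, Dclk1 (ENSMUSG00000027797) spans chr3:55242364-55539068 on the plus strand and Trpm5 (ENSMUSG00000009246) chr7:143069153-143094642 on the minus strand. Pou2f3 (ENSMUSG00000032015) spans chr9:43123939-43210369 and Gfi1b (ENSMUSG00000026815) chr2:28609450-28621982, both on the minus strand. Alox5 (ENSMUSG00000025701) spans chr6:116410077-116461178 on the minus strand, Alox5ap (ENSMUSG00000060063) chr5:149264767-149288153 on the plus strand and Ltc4s (ENSMUSG00000020377) chr11:50236461-50238616 on the minus strand. Hpgds (ENSMUSG00000029919) spans chr6:65117293-65144908 on the minus strand, Ptgs1 (ENSMUSG00000047250) chr2:36230426-36252272 on the plus strand and Il25 (ENSMUSG00000040770) chr14:54932695-54935837 on the plus strand. The genes thus lie on 8 chromosomes, with Alox5 and Hpgds on chromosome 6 and Gfi1b and Ptgs1 on chromosome 2. Exons of Trpm5 share 220 bases with Tssc4 on the opposite strand, and exons of Ltc4s share 268 bases with the predicted gene Gm26542. Without a stated strand setting, reads from those stretches cannot be told apart, which makes the Trpm5 and Ltc4s counts less certain.

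RefSeq promoter windows (GRCm38.p6) of 250 bases before and 50 bases after the start site were found for 7 of the 10 genes, in 8 windows because Dclk1 has a long and a short form. They were searched on both strands for the octamer ATGCAAAT (ATTTGCAT on the other strand), the letters bound by POU factors such as POU2F3, and for CTTTGAT, a core of the TCF/LEF sites through which Wnt signalling acts. The octamer was found in 1 of the 8 windows, that of Hpgds, with its first base 174 bases before the start site (position -174). It was present in 570 of 32851 promoters of that length in the table (1.74%). The TCF/LEF letters were found in 1 window, the long form of Dclk1 (position -153), and in 1225 of 32851 promoters (3.73%). The other 6 windows held neither, and no 2 matches overlapped. Both matches are descriptions of the letters and say nothing of binding. The 250 bases before the start site are printed for the 2 genes with a match, and for Ltc4s, the leukotriene C4 synthase, as a window with no match. Capitals mark the matched letters. The windows lie at chr3:55242114-55242363 on the plus strand, chr6:65144731-65144980 on the minus strand and chr11:50238533-50238782 on the minus strand. Start sites here are those of RefSeq. The GENCODE spans of Hpgds, which starts at 65144908, and Ltc4s, at 50238616, reach into their printed windows. By GENCODE the Hpgds octamer therefore lies within the gene.
Dclk1: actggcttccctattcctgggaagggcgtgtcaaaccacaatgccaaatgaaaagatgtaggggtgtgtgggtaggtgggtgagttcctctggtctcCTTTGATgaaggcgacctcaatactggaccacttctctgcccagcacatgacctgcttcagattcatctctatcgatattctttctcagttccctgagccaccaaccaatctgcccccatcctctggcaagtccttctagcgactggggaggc
Hpgds: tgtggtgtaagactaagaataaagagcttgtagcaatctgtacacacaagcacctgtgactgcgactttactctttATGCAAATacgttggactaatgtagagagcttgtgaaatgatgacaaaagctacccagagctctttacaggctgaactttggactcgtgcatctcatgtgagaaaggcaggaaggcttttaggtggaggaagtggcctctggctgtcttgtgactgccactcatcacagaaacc
Ltc4s: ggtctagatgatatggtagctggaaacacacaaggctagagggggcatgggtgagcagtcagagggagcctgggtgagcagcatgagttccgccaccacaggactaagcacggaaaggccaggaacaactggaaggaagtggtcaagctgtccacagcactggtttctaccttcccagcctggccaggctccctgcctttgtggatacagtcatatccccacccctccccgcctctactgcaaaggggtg

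Levels of different genes were compared as CPM per kilobase of annotated exon (RPKM). In Apc Eif3h, Ptgs1 was highest at 6.52 ± 0.687 RPKM, followed by Ltc4s at 3.65 ± 0.853 and Alox5ap at 2.25 ± 0.523 RPKM (SD, n = 4). Trpm5, Hpgds, Dclk1, Pou2f3 and Alox5 then ran from 1.32 ± 0.342 RPKM down to 0.379 ± 0.0792 RPKM. In Apc the same first 5 genes came in the same order, at 8.04 ± 1.04 RPKM for Ptgs1, 3.73 ± 0.890 for Ltc4s, 2.21 ± 0.424 for Alox5ap, 1.36 ± 0.358 for Trpm5 and 1.04 ± 0.0567 for Hpgds. In WT, Ptgs1 at 10.99 ± 1.76 RPKM and Ltc4s at 10.03 ± 2.44 RPKM overlapped, and Alox5ap followed at 5.43 ± 2.05 RPKM. Gfi1b and Il25 were last in every group, at or below 0.216 RPKM on average. Between neighbours in the order, libraries separated Ptgs1 from Ltc4s in Apc Eif3h and in Apc but not in WT. They separated Alox5ap from Trpm5 in Apc Eif3h and in WT but not in Apc. Trpm5 and Hpgds, and Alox5 and Pou2f3, separated in WT, and Hpgds and Dclk1 in Apc. The upper of Gfi1b and Il25 was separate from the gene above it in every group. All other neighbours overlapped. Per length, then, Ptgs1 and Ltc4s stood above the lineage genes in every group. Dclk1 has several forms with different exons, so its value per length depends on the annotation.

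**Figure D1:**
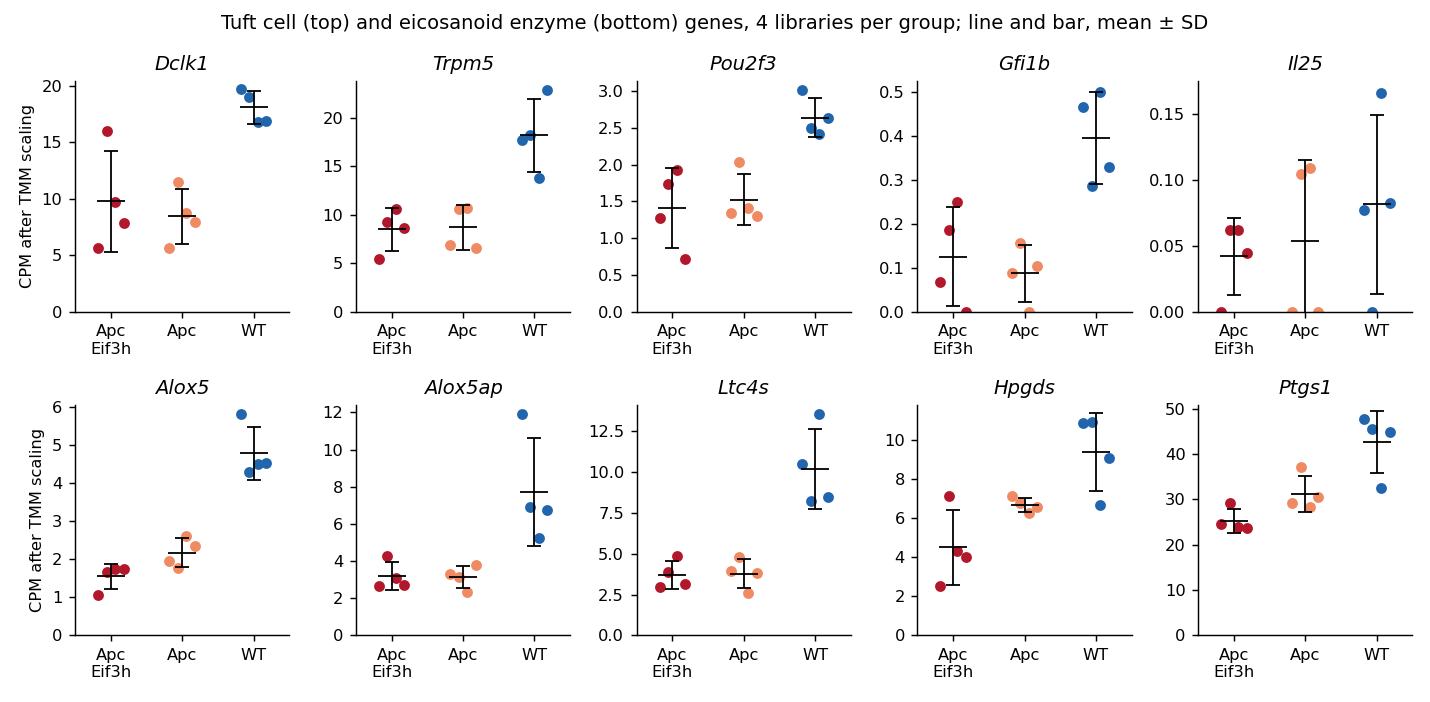
CPM after TMM scaling (y axis, from 0) of the 10 genes in 12 libraries, with a panel per gene and the groups Apc Eif3h, Apc and WT from left to right. Points are libraries, and lines and bars give mean ± SD of 4. All Apc Eif3h and Apc libraries lie below WT for Dclk1, Trpm5, Pou2f3, Alox5, Alox5ap and Ltc4s, and Il25 stays at 0.166 CPM or below.

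Among the lineage genes, RNA of Dclk1, Trpm5 and Pou2f3 was lower in both Apc-deficient groups than in WT. Dclk1 read 5.61, 15.96, 9.68 and 7.81 CPM in Apc Eif3h, 5.61, 11.4, 8.76 and 7.94 CPM in Apc, and 19.7, 18.9, 16.8 and 16.9 CPM in WT. Every library of the first 2 groups was below every WT library, with Apc Eif3h replicate 2 the nearest to WT. Dclk1 fell 2.12-fold in Apc against WT, a log2 fold change of -1.09 (SE 0.27, edgeR adjusted p = 0.00548), and 1.85-fold in Apc Eif3h against WT, -0.89 (SE 0.27, adjusted p = 0.0138). Without Apc Eif3h replicate 2 the change in Apc Eif3h against WT was -1.23 (adjusted p = 0.000801). When libraries were scaled by their totals only, it was -0.69 and missed the threshold (adjusted p = 0.0507).

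Trpm5 read 5.41, 9.28, 10.55 and 8.66 CPM in Apc Eif3h, 6.86, 10.6, 10.7 and 6.54 CPM in Apc, and 17.7, 18.2, 13.8 and 22.9 CPM in WT. The groups did not overlap with WT, and the Apc Eif3h and Apc libraries covered much the same range. The channel's RNA fell 2.08-fold in Apc against WT (log2 -1.06, SE 0.23, adjusted p = 0.0022) and 2.14-fold in Apc Eif3h against WT (-1.10, SE 0.23, adjusted p = 0.00146).

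Pou2f3, the lineage factor, was scarcer, at 1.27, 1.73, 1.92 and 0.714 CPM in Apc Eif3h, 1.34, 2.04, 1.41 and 1.30 CPM in Apc, and 3.02, 2.49, 2.41 and 2.64 CPM in WT. All 8 libraries of the Apc-deficient groups lay below the lowest WT library. It fell 1.72-fold in Apc against WT (log2 -0.78, SE 0.27, adjusted p = 0.028) and 1.91-fold in Apc Eif3h against WT (-0.94, SE 0.27, adjusted p = 0.0108). The call in Apc against WT was the least firm of the set. It was lost with males only (-0.74, adjusted p = 0.102), with scaling by library totals only (-0.55, adjusted p = 0.0962) and when any of 5 libraries was left out (Apc replicate 1, 3 or 4, or WT replicate 1 or 4), at adjusted p = 0.0531 to 0.0768.

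Gfi1b was counted 1, 3, 4 and 0 times in the Apc Eif3h libraries, 1, 3, 0 and 2 times in Apc, and 6, 4, 6 and 4 times in WT. These are sums of 8, 6 and 20 counts, too few for the test across genes. In CPM every Apc Eif3h and Apc library was below every WT library, which gave p = 0.0286 in an exact two-sided permutation test for each of these comparisons, the smallest that 4 against 4 libraries allow. After Benjamini-Hochberg adjustment over 6 comparisons (Gfi1b and Il25 in 3 contrasts) this was 0.0858. Apc Eif3h and Apc did not separate (exact permutation p = 0.629, adjusted 0.788).

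The 3 genes of leukotriene C4 synthesis fell in both comparisons with WT. Alox5, the lipoxygenase, read 1.07, 1.67, 1.74 and 1.74 CPM in Apc Eif3h, 1.96, 1.78, 2.61 and 2.34 CPM in Apc, and 5.81, 4.27, 4.49 and 4.53 CPM in WT. The 3 groups followed each other without overlap. Alox5 fell 2.18-fold in Apc against WT (log2 -1.13, SE 0.19, adjusted p = 0.000451) and 3.03-fold in Apc Eif3h against WT (-1.60, SE 0.20, adjusted p = 3.49e-05).

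Alox5ap, which presents arachidonic acid to the lipoxygenase, read 2.67, 4.27, 3.10 and 2.72 CPM in Apc Eif3h, 3.29, 3.14, 2.34 and 3.79 CPM in Apc, and 11.9, 6.91, 5.24 and 6.76 CPM in WT. WT replicate 1 was the highest library, and the lowest WT library was still above the other 8. Its RNA fell 2.46-fold in Apc against WT (log2 -1.30, SE 0.26, adjusted p = 0.00136) and 2.42-fold in Apc Eif3h against WT (-1.28, SE 0.26, adjusted p = 0.00121).

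Ltc4s, the leukotriene C4 synthase, read 2.94, 3.90, 4.84 and 3.12 CPM in Apc Eif3h, 3.92, 4.81, 2.61 and 3.79 CPM in Apc, and 10.46, 8.19, 13.6 and 8.49 CPM in WT. The gap to WT held in every library. It fell 2.68-fold in Apc against WT (log2 -1.42, SE 0.23, adjusted p = 0.00032) and 2.75-fold in Apc Eif3h against WT (-1.46, SE 0.23, adjusted p = 0.000198).

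Both prostaglandin enzymes moved less than the other tested genes in Apc against WT, but only Ptgs1 did so in Apc Eif3h against WT. Ptgs1, the most abundant gene of the set, read 24.5, 29.3, 23.8 and 23.6 CPM in Apc Eif3h, 29.1, 37.1, 28.2 and 30.5 CPM in Apc, and 47.8, 45.6, 32.6 and 44.8 CPM in WT. Apc Eif3h lay below all WT libraries, while Apc replicate 2 lay above WT replicate 3. Ptgs1 fell 1.37-fold in Apc against WT (log2 -0.45, SE 0.13, adjusted p = 0.0116) and 1.69-fold in Apc Eif3h against WT (-0.76, SE 0.13, adjusted p = 0.000407). The call in Apc against WT was lost with scaling by library totals only (-0.23, adjusted p = 0.21) and with males only (-0.40, adjusted p = 0.075).

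Hpgds, the prostaglandin D2 synthase, read 2.54, 7.12, 4.34 and 4.02 CPM in Apc Eif3h, 7.12, 6.79, 6.26 and 6.59 CPM in Apc, and 10.8, 10.9, 6.65 and 9.06 CPM in WT. Both Apc-deficient groups overlapped with WT, whose replicate 3 was low, and Apc Eif3h replicate 2 was the highest of its group. Hpgds fell 2.08-fold in Apc Eif3h against WT (log2 -1.06, SE 0.25, adjusted p = 0.00332), with a log2 fold change of -1.36 without that library (adjusted p = 0.000311). In Apc against WT its log2 fold change was -0.49, with an approximate 95% interval of -1.02 to 0.04, and it was not called (adjusted p = 0.111). It passed in that comparison when only the 2 groups were fitted (-0.47, adjusted p = 0.0335) and when Apc Eif3h replicate 2 was left out of the shared estimate of spread (-0.49, adjusted p = 0.042).

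Il25, the tuft cell cytokine, was at the edge of detection. It was counted 0, 1, 1 and 1 times in the Apc Eif3h libraries, 0, 2, 2 and 0 times in Apc, and 1, 0, 2 and 1 times in WT. These 3, 4 and 4 counts did not separate any groups (exact two-sided permutation p = 0.343 to 0.829), and at this depth a difference in Il25 was not detectable.

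**Figure D2:**
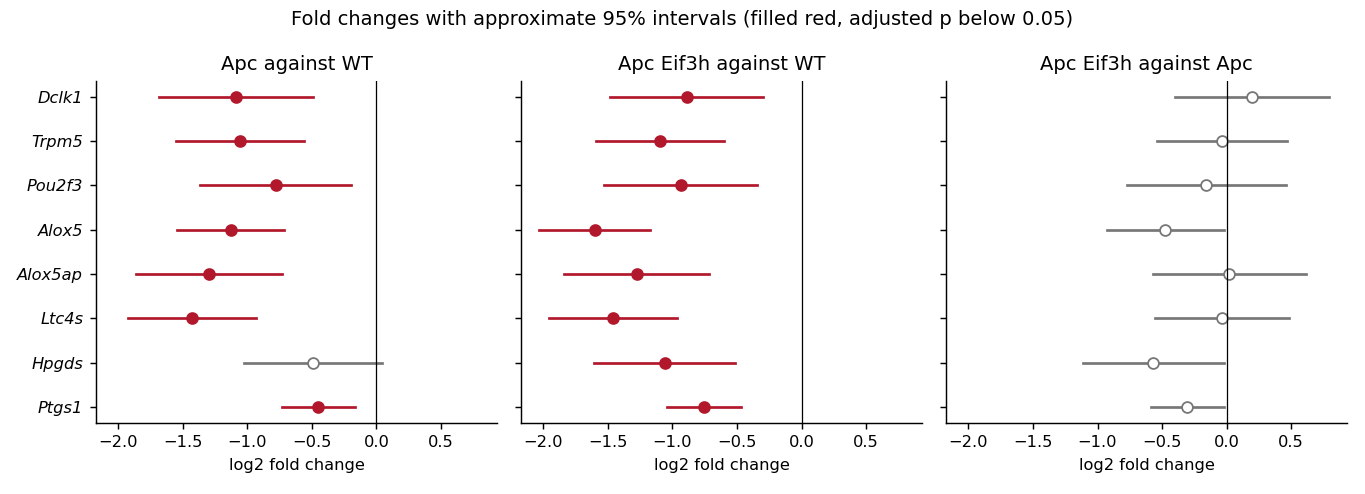
Log2 fold change (x axis) of the 8 tested genes (y axis) in Apc against WT, Apc Eif3h against WT and Apc Eif3h against Apc, from left to right, with approximate 95% intervals. Filled red points have an adjusted p below 0.05. There are 7 in the first panel, 8 in the second and 0 in the third, where Alox5, Hpgds and Ptgs1 lie furthest below 0.

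Of the 8 tested genes, 7 were called lower and 0 higher in Apc against WT, where 24.1% of 17394 tested genes were called lower, 27.7% higher and 51.8% in either direction. All 8 were called lower in Apc Eif3h against WT, where 28.1% of all genes were called lower, 29.8% higher and 57.8% in either direction. Libraries did not overlap, all below WT, for 6 of the 8 in Apc, where 22.0% of all genes showed the same, and for 7 of the 8 in Apc Eif3h, where 20.7% did. The median log2 fold change of the 8 genes was -1.07 in Apc against WT and -1.08 in Apc Eif3h against WT. Over all tested genes it was -0.01 and -0.03. The comparisons with WT share the 4 WT libraries, so their values are set side by side and are not independent of each other. With scaling by library totals only, the counts called lower were 5 in Apc against WT, without Pou2f3 and Ptgs1, and 7 in Apc Eif3h against WT, without Dclk1. In bulk tissue, fewer cells of a type and less RNA per cell cannot be told apart.

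Apc Eif3h against Apc asks what loss of Eif3h together with Apc adds to loss of Apc alone, and both groups are labelled day 4. None of the 8 genes was called by edgeR (0 of 8, and 0 by DESeq2), where 7.05% of all tested genes were called, 2.78% lower and 4.27% higher. At an unadjusted p below 0.05 there were 3, namely Alox5, Hpgds and Ptgs1, all lower in Apc Eif3h. Alox5 averaged 1.55 ± 0.325 CPM in Apc Eif3h and 2.17 ± 0.374 CPM in Apc (SD, n = 4 each), with every Apc Eif3h library below every Apc library, a separation seen in 7.26% of all genes. Its log2 fold change was -0.47 (interval -0.93 to -0.02, adjusted p = 0.194). Ptgs1 averaged 25.3 ± 2.67 CPM in Apc Eif3h and 31.2 ± 4.02 CPM in Apc (-0.30, interval -0.59 to -0.02, adjusted p = 0.182). Hpgds averaged 4.50 ± 1.91 CPM in Apc Eif3h and 6.69 ± 0.364 CPM in Apc (-0.57, interval -1.11 to -0.02, adjusted p = 0.198). Without Apc Eif3h replicate 2 the Hpgds value was -0.87 and was called (adjusted p = 0.0454).

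The other 5 tested genes lay near 0 in that comparison. The log2 fold change was 0.20 for Dclk1 (interval -0.40 to 0.79) and -0.04 for Trpm5 (-0.54 to 0.46). It was -0.16 for Pou2f3 (-0.77 to 0.46), 0.02 for Alox5ap (-0.57 to 0.61) and -0.03 for Ltc4s (-0.55 to 0.48). Without Apc Eif3h replicate 2, Dclk1 turned to -0.14 and Alox5ap to -0.15, neither of them called (adjusted p = 0.758 and 0.805). These intervals reach 0.40 or more to each side of 0, so the values do not show that the groups have equal levels.

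A list of 39 other tuft cell markers, 32 of them tested, moved the same way in part. In Apc against WT 17 were called lower, 1 higher and 14 not, with a median log2 fold change of -0.87. Over all tested genes 24.1% were called lower and 27.7% higher. Ltb4r1, a receptor for leukotriene B4, averaged 4.83 ± 1.34 CPM in Apc and 19.5 ± 4.51 CPM in WT (SD, n = 4 each), a log2 fold change of -2.03 (SE 0.26, adjusted p = 7.97e-05). Sh2d6, which encodes an SH2 domain protein, averaged 6.13 ± 1.88 CPM in Apc and 16.5 ± 2.88 CPM in WT (-1.41, adjusted p = 0.000758), and its relative Sh2d7 2.33 ± 1.09 CPM in Apc and 6.87 ± 1.15 CPM in WT (-1.51, adjusted p = 0.00173). Exons of Sh2d7 share 227 bases with Cib2 on the opposite strand, so its counts are less certain. Nradd, a neurotrophin receptor relative, was the 1 gene called higher, at 6.06 ± 0.867 CPM in Apc and 2.75 ± 0.130 CPM in WT (1.13, adjusted p = 0.000266).

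Of the 32 other tuft markers 19 were called lower in Apc Eif3h against WT, 1 higher and 12 not, with a median of -0.55. Over all tested genes 28.1% were called lower and 29.8% higher. Of the 32, 27 lay above the filter's level in all 12 libraries. Sucnr1, the succinate receptor of tuft cells, did so in 0 Apc Eif3h, 1 Apc and 3 WT libraries. It averaged 0.136 ± 0.0967 CPM in Apc Eif3h and 0.898 ± 0.248 CPM in WT and passed the filter mainly through WT, so its call is no support. The same holds for any call of Chat (0 Apc Eif3h, 2 Apc and 3 WT libraries), Ly6g6f (1, 1 and 3) and Alpk3 (1, 1 and 4). The list's counts in both comparisons with WT were not made without these genes. Ltb4r1 (-2.01, adjusted p = 5.21e-05) and Sh2d6 (-1.27, adjusted p = 0.00116) fell as well, and Nradd was again higher (1.12, adjusted p = 0.000202). Without Apc Eif3h replicate 2 the count called lower was 29 of 32. Several genes on this list are also made by white blood cells. Ptprc, the pan-leukocyte gene, reached 163 CPM and Spib, a transcription factor of B cells too, 71.5 CPM in Apc Eif3h, against at most 35.5 CPM and 4.81 CPM in Apc. The part of replicate 2 in the list's count is given by the value without it, and the part of white blood cells in the other libraries was not tested. None of the 32 was called in Apc Eif3h against Apc, 0 by edgeR and 0 by DESeq2, with 5 at an unadjusted p below 0.05.

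**Figure D3:**
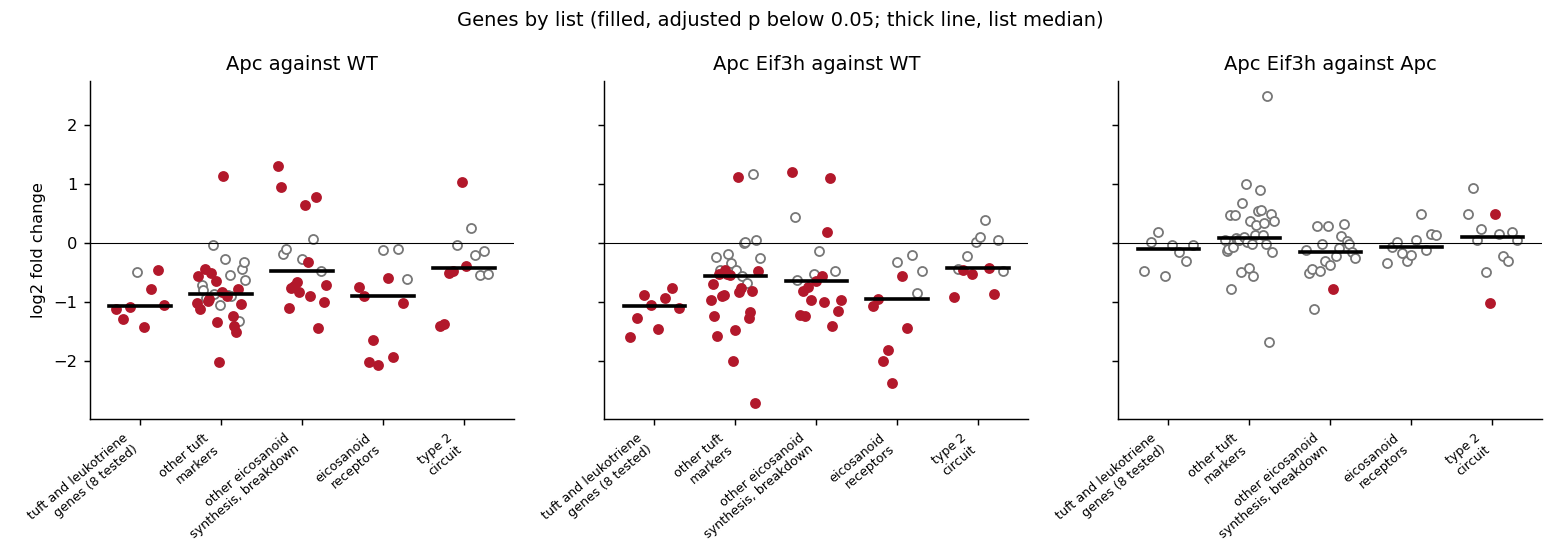
Log2 fold change (y axis) of each tested gene in the tuft and leukotriene set and 4 further lists (x axis), in Apc against WT, Apc Eif3h against WT and Apc Eif3h against Apc, from left to right. Filled red points have an adjusted p below 0.05 and thick lines are list medians. The medians of the 5 lists lie between -1.07 and -0.43 in Apc against WT, and between -0.15 and 0.10 in Apc Eif3h against Apc.

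Other enzymes and carriers of eicosanoids (22 genes, 19 tested) went both ways. In Apc against WT 10 were called lower and 4 higher, where 24.1% of all tested genes were called lower and 27.7% higher. In Apc Eif3h against WT 11 were lower and 3 higher, where 28.1% of all genes were lower and 29.8% higher. The higher counts are thus no excess over all genes. Slco2a1, which takes prostaglandins up into cells, averaged 62.1 ± 8.56 CPM in Apc Eif3h, 68.8 ± 9.91 CPM in Apc and 138 ± 26.3 CPM in WT. It fell by 1.16 on the log2 scale in Apc Eif3h against WT (adjusted p = 4.43e-05) and by 1.01 in Apc against WT (adjusted p = 0.000168). Cbr1, a carbonyl reductase that acts on prostaglandins, fell by 1.10 in Apc against WT (adjusted p = 0.000982). Dpep1, a dipeptidase that turns leukotriene D4 into leukotriene E4, fell by 1.25 in Apc Eif3h against WT (adjusted p = 0.000253).

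Among the genes that went up, Ptges3, a prostaglandin E synthase that is also an HSP90 co-chaperone, averaged 97.99 ± 8.99 CPM in Apc Eif3h, 78.2 ± 9.81 CPM in Apc and 45.7 ± 5.73 CPM in WT. It rose by 1.10 in Apc Eif3h against WT (adjusted p = 1.13e-05) and by 0.77 in Apc against WT (adjusted p = 0.000185). Abcc1, the transporter that exports leukotriene C4, averaged 29.1 ± 4.93 CPM in Apc Eif3h, 31.4 ± 4.09 CPM in Apc and 12.6 ± 3.88 CPM in WT. Its log2 fold change was 1.20 in Apc Eif3h against WT (adjusted p = 0.000298) and 1.31 in Apc against WT (adjusted p = 0.000223). The RNA of the exporter was thus higher where that of the synthase Ltc4s was lower. Abcc4 and Pla2g4a of this list also averaged higher in Apc, at 13.7 ± 2.22 and 30.2 ± 3.83 CPM, than in WT, at 7.02 ± 0.954 and 19.3 ± 6.33 CPM.

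Lta4h, named here for its role after its values were seen, competes with Ltc4s for leukotriene A4 and makes leukotriene B4. It averaged 204 ± 35.0 CPM in Apc Eif3h, 264 ± 22.9 CPM in Apc and 317 ± 31.8 CPM in WT. It fell by 0.64 on the log2 scale in Apc Eif3h against WT (adjusted p = 0.000747) and was at -0.26 without a call in Apc against WT (adjusted p = 0.0828). A lone gene of the 19 was called by edgeR in Apc Eif3h against Apc, where 7.05% of all tested genes were called. It was Pla2g4a, the phospholipase that releases arachidonic acid. It averaged 17.6 ± 2.56 CPM in Apc Eif3h and 30.2 ± 3.83 CPM in Apc (SD, n = 4 each), a log2 fold change of -0.78 (SE 0.21, adjusted p = 0.0414), with no overlap. In WT it averaged 19.3 ± 6.33 CPM, close to Apc Eif3h and below Apc. Without Apc Eif3h replicate 2 or without WT replicate 1 the count was 0. DESeq2 with every library called 2 genes of the list lower and 0 higher.

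Receptors for these mediators (14 genes, 11 tested) were lower or not called. In Apc against WT 8 were called lower and 0 higher, where 24.1% of all tested genes were called lower. In Apc Eif3h against WT 7 were lower and 0 higher, where 28.1% of all genes were lower. Leaving out Apc Eif3h replicate 2, the counts lower were 10 of 12 in Apc against WT and 9 of 12 in Apc Eif3h against WT. Ltb4r2, the second leukotriene B4 receptor, averaged 8.80 ± 2.36 CPM in Apc Eif3h, 9.96 ± 1.18 CPM in Apc and 31.0 ± 6.83 CPM in WT. It fell by 1.82 in Apc Eif3h against WT (adjusted p = 1.51e-05) and by 1.64 in Apc against WT (adjusted p = 4.91e-05). Ptgdr, a prostaglandin D2 receptor, averaged 0.490 ± 0.263 CPM in Apc Eif3h, 0.588 ± 0.442 CPM in Apc and 2.4997 ± 0.351 CPM in WT. It was above the filter's level in 1 Apc Eif3h, 2 Apc and 4 WT libraries, so it passed mainly through WT and its call is no support. The receptor counts were not made without it. Ptger3, a prostaglandin E2 receptor, fell by 1.94 in Apc against WT (adjusted p = 0.000417).

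Cysltr1, a receptor for cysteinyl leukotrienes, averaged 2.76 ± 0.332 CPM in Apc Eif3h and 5.83 ± 1.48 CPM in WT (-1.07, adjusted p = 0.00057). Cysltr2, the other such receptor, named for its role after its values were seen, averaged 2.11 ± 0.180 CPM in Apc Eif3h, 2.22 ± 0.485 CPM in Apc and 4.12 ± 0.912 CPM in WT. Its log2 fold change was -0.96 in Apc Eif3h against WT (adjusted p = 0.00198) and -0.89 in Apc against WT (adjusted p = 0.00358). None of the 11 receptors was called in Apc Eif3h against Apc, 0 by edgeR, 0 by DESeq2, and 0 had an unadjusted p below 0.05.

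Genes of the type 2 circuit around tuft cells (16 genes, 12 tested) moved less evenly. In Apc against WT 5 were called lower and 1 higher, where 24.1% of all tested genes were called lower and 27.7% higher. Clca1, a goblet cell product that IL-13 induces, averaged 304 ± 78.6 CPM in Apc and 811 ± 183 CPM in WT (-1.41, adjusted p = 0.000352). Gata3, a factor of type 2 lymphocytes, averaged 0.549 ± 0.144 CPM in Apc and 1.40 ± 0.445 CPM in WT (-1.38, adjusted p = 0.00489). It was above the filter's level in 3 Apc Eif3h, 1 Apc and 4 WT libraries, so its call here is no support, though it is among the 5. The other 3 called lower were Il13ra1 (-0.51), Il17ra (-0.47), which encode receptor chains for IL-13 and for IL-25, and Il33 (-0.39), an alarm cytokine. Il1rl1, the receptor for IL-33, was higher, at 37.5 ± 6.63 CPM in Apc and 18.1 ± 6.53 CPM in WT (1.04, adjusted p = 0.00518).

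Of the 12 genes 5 were called lower and 0 higher in Apc Eif3h against WT, with Clca1 at 431 ± 100 CPM in Apc Eif3h and 811 ± 183 CPM in WT (-0.91, adjusted p = 0.00442). Rora (-0.86), Il13ra1 (-0.46), Il4ra (-0.42) and Il17rb (-0.52), which encodes a chain of the IL-25 receptor, were the other 4. Over all tested genes 28.1% were called lower in that comparison. The list's count called lower was 6 without Apc Eif3h replicate 2. The 2 called by edgeR in Apc Eif3h against Apc, where 7.05% of all tested genes were called, were both parts of the IL-33 pathway. Il1rl1 averaged 18.4 ± 5.63 CPM in Apc Eif3h and 37.5 ± 6.63 CPM in Apc (-1.02, SE 0.26, adjusted p = 0.0341), and Il33 averaged 42.4 ± 8.02 CPM in Apc Eif3h and 30.2 ± 4.41 CPM in Apc (0.49, SE 0.13, adjusted p = 0.0437). The receptor and its ligand thus moved in opposite directions. Without Apc Eif3h replicate 2 the counts were 0 lower and 0 higher, and without WT replicate 1 they were 1 and 0. DESeq2 with every library called 1 lower and 2 higher.

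Markers of the other cells that make or receive these mediators were summed per library. The 10 tuft and leukotriene genes summed to 46.1 to 73.4 CPM in Apc Eif3h, 59.3 to 77.97 CPM in Apc and 96.2 to 128 CPM in WT. The 10 epithelial genes summed to 7949 to 11451 CPM in Apc Eif3h, 8707 to 10122 CPM in Apc and 10035 to 14357 CPM in WT. Epithelial RNA was thus present in every library, and the ranges overlapped. In Apc against WT 4 of the 10 were called lower and 1 higher, where 24.1% of all tested genes were lower and 27.7% higher. In Apc Eif3h against WT 3 were lower and 2 higher, where 28.1% of all genes were lower and 29.8% higher. Of the mast cell list 4 of 11 genes were tested. In Apc against WT 0 of them were called by edgeR, 0 by DESeq2, and 0 had an unadjusted p below 0.05. The 2 called lower in Apc Eif3h against WT were Kit (-0.47, adjusted p = 0.0139), the stem cell factor receptor, and Hdc (-0.94, adjusted p = 0.048), the histamine-making enzyme. Over all tested genes 28.1% were called lower in that comparison. Of the mast cell proteases, Cpa3 was near 0, at 0.185 ± 0.154 CPM in Apc Eif3h, 0.237 ± 0.0889 CPM in Apc and 0.410 ± 0.372 CPM in WT. Mcpt1, the mucosal mast cell protease, was present, at 1.97 ± 0.670 CPM in Apc Eif3h, 1.76 ± 0.918 CPM in Apc and 2.20 ± 1.06 CPM in WT, and was not called in any comparison. Per length Mcpt1 averaged 1.94 RPKM in Apc Eif3h, 1.74 RPKM in Apc and 2.17 RPKM in WT, above Pou2f3 and Alox5 in each group. Mcpt1 RNA was thus in all groups. The genes of the list that were not tested had group means of 0.410 CPM or less, with Cpa3 in WT the highest. The part of mast cells in the leukotriene and prostaglandin genes was not tested. The whole list summed to 17.5 to 23.4 CPM in Apc Eif3h, 20.6 to 28.7 CPM in Apc and 27.5 to 33.9 CPM in WT, most of it Kit.

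The counts of called genes that follow stand beside 24.1% of all genes called lower in Apc against WT and 28.1% in Apc Eif3h against WT. Macrophage and neutrophil genes were lower in part, with 8 of 14 tested called lower in Apc and 11 of 14 in Apc Eif3h against WT. They summed to 257 to 488 CPM in Apc Eif3h, 297 to 351 CPM in Apc and 324 to 872 CPM in WT. The highest Apc Eif3h sum was that of replicate 2, with the others of that group at 257 to 292 CPM. Innate lymphoid and T cell genes were called lower in 10 of 12 in Apc and 7 of 12 in Apc Eif3h against WT, and summed to 83.6 to 149.7 CPM in Apc Eif3h, 80.7 to 129.6 CPM in Apc and 150.4 to 460 CPM in WT. Of these genes, Icos was above the filter's level in 1 Apc Eif3h, 1 Apc and 4 WT libraries, so any call of it is no support. The highest Apc Eif3h sum of this list was again that of replicate 2, with the others of that group at 83.6 to 110.7 CPM. Of 3 tested eosinophil genes 2 were called lower in each comparison with WT, Prg2, a granule protein, and Siglecf, which is also on the list of other tuft markers. The other 7 genes of the list summed to 1.604 to 4.83 CPM in Apc Eif3h, 1.78 to 2.23 CPM in Apc and 3.24 to 8.83 CPM in WT. Of the eosinophil list of 8 genes, 2 were at 0 in all Apc Eif3h libraries, 1 in all Apc and 3 in all WT libraries. Genes of enteric neurons and glia, called lower in 8 of 12 in Apc and 10 of 12 in Apc Eif3h, summed to 43.9 to 59.9 CPM in Apc Eif3h, 55.2 to 67.5 CPM in Apc and 90.0 to 109 CPM in WT. Fibroblast genes were called lower in 3 of 9 in Apc and 8 of 9 in Apc Eif3h, the first of which is close to the share of all genes. The part of cells outside the epithelium, which the villin-driven Cre does not target, in the values of Alox5, Alox5ap, Ltc4s and Hpgds was not tested.

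**Figure D4:**
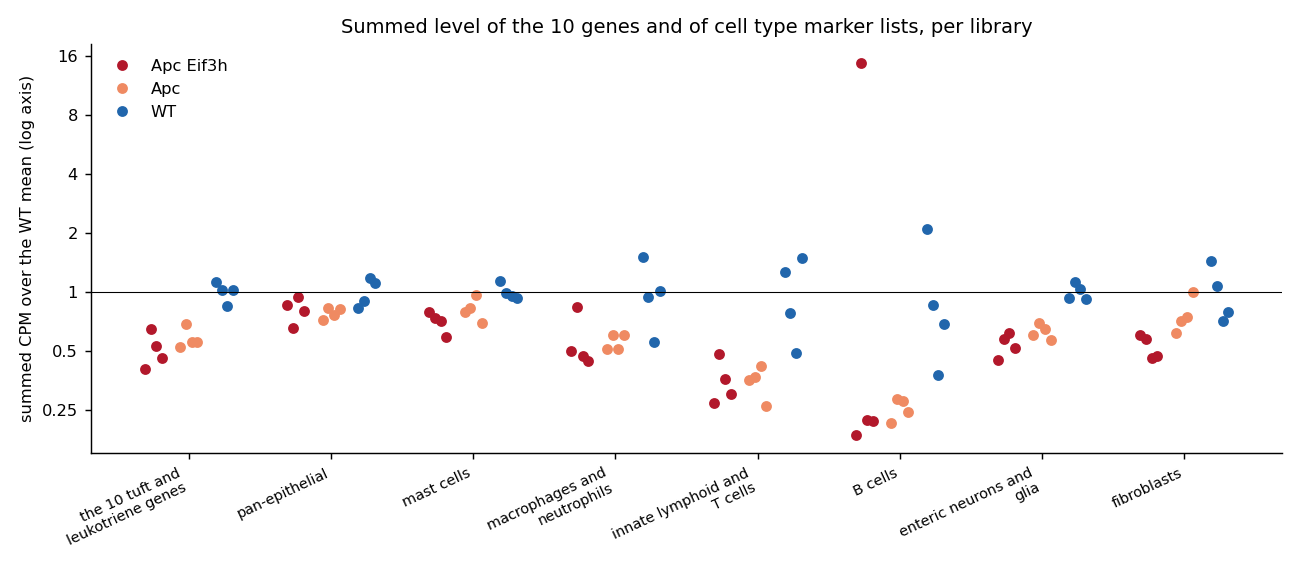
Summed CPM of the 10 genes and of 7 cell type marker lists (x axis) in each library, divided by the WT mean (log y axis), with Apc Eif3h, Apc and WT from left to right. The 10 genes lie between 0.404 and 0.683 in the Apc Eif3h and Apc libraries and between 0.8435 and 1.12 in WT, and Apc Eif3h replicate 2 stands alone in B cell genes.

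Within groups the genes varied together to a moderate degree. Over the 12 libraries, as deviations of log2 CPM from the group mean, 23 of 28 pairs of the 8 tested genes had a positive correlation, with Pearson's r from -0.0507 for Ltc4s and Ptgs1 to 0.736 for Dclk1 and Hpgds. The mean deviation over the 8 genes was highest in Apc Eif3h replicate 2 (0.366 on the log2 scale) and lowest in Apc Eif3h replicate 1 (-0.382), with Apc from -0.118 to 0.203 and WT from -0.192 to 0.220. The spread of the set was therefore widest in Apc Eif3h. Among 12729 other genes the deviations most like this mean were those of Pld3 (r = 0.961), Slc26a10 (0.930), Rubcn (0.923), Rnf130 (0.918) and Dmac2 (0.917). None of these 5 is on any list used here. The points share libraries and scaling factors, and ranks at the top of so many genes are a description only.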

How the data were processed

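RNA of small intestine was extracted with an RNeasy Micro kit, made into TruSeq RNA libraries and read as pairs of 36 cycles on a NextSeq 500, per the labels' protocols. The authors deposited raw counts per gene. Per the submitters' processing notes, HISAT2 2.1.0 and featureCounts 1.6.4 were used, with Trim Galore 0.6.4, FastQC 0.11.8 and build GRCm38. Annotation, strand and multi-mapping settings were not given in the sources used. Of 55421 identifiers 55240 matched GENCODE M21, the source of symbols, coordinates and exon lengths.

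The test was edgeR's quasi-likelihood test (4.0.16, R 4.3.3) on all 12 libraries, with TMM factors, filterByExpr and a mean for each group. P-values were adjusted by Benjamini-Hochberg over 17394 tested genes, and a gene was called below 0.05. Standard errors are the absolute log2 fold change over the square root of F, and 95% intervals use them. The number of counts limits the precision of scarce genes. Gfi1b and Il25, below the filter, got exact permutation tests of CPM. DESeq2 1.42.0, library totals, other filters, sex, the replicate block and each library left out were alternatives. The test was checked on simulated counts.

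The genes, lists, tests and alternatives were chosen with earlier results of these data known. Of each further list, up to 4 called genes with the smallest p per comparison were named. Genes of a count of 5 or fewer were named too, except some eicosanoid enzymes called higher and the fibroblast and epithelial genes.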

Additional observations from a re-analysis of the deposited data

Results flagged for a closer look

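In each group of 4 libraries the highest and lowest value of each of the 10 genes was compared with the rest (Dixon's ratio, gap to the nearest library over the group's range, above 0.829). Of 30 groups 4 passed, where chance gives about 1 in 20. Pou2f3 in Apc replicate 2 was high at 2.04 CPM, with the other 3 libraries at 1.30 to 1.41 CPM. Alox5 in WT replicate 1 was high at 5.81 CPM, with the others at 4.27 to 4.53 CPM. Alox5 in Apc Eif3h replicate 1 was low at 1.07 CPM, with the others at 1.67 to 1.74 CPM. Ptgs1 in Apc Eif3h replicate 2 was high at 29.3 CPM, with the others at 23.6 to 24.5 CPM. In that last library the B cell genes were high too (1154 CPM in sum), and their part in the Ptgs1 value was not tested.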

How the results depend on the processing

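Over 20 alternatives for each of the 8 tested genes, Apc against WT kept direction and call in 149 of 160 values, lost a call in 9, gained 1 in 2 and reversed in 0. Apc Eif3h against WT kept 159 and lost 1. The calls lost or gained are given with the genes above, and the cause was not tested. The number of genes called in Apc against WT was 7, and 5 to 8 under the alternatives (6 to 8 with a library left out). With no filter it was 8, with Gfi1b (-2.04, adjusted p = 0.0294) added. In Apc Eif3h against WT it was 8, or 7 with library totals only.

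In Apc Eif3h against Apc it was 0, or 0 to 1 with a library left out (Hpgds without Apc Eif3h replicate 2). Values near 0 changed sign there in 13 cases without a call. Alox5ap (0.02) was at -0.0077 with library totals and -0.00053 with sex as a covariate, and -0.15 to 0.13 over all alternatives. With a library left out Trpm5 ran from -0.16 to 0.12, Pou2f3 from -0.33 to 0.10, Ltc4s from -0.18 to 0.11 and Dclk1 from -0.14 to 0.38.

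Over all genes, 1226 were called in Apc Eif3h against Apc, 406 without Apc replicate 3, 661 without Apc Eif3h replicate 2, 1767 without Apc Eif3h replicate 3, 1751 by DESeq2, 817 with no filter and 659 with males only. Library totals moved the median of all genes in Apc against WT to 0.22 and the share of calls that were higher to 74.0%, from 53.5%. In Apc Eif3h against WT they moved the median to 0.17 and that share to 67.5%, from 51.5%, and in Apc Eif3h against Apc the share to 49.8%, from 60.6%. The added alternatives, chosen after seeing the data, gave 29 other tuft markers lower in Apc Eif3h against WT without Apc Eif3h replicate 2 and 14 without WT replicate 1 (19 with both), and 24 and 12 in Apc against WT without that library and without WT replicate 1 (17 with both). For Apc Eif3h against Apc they gave 0 eicosanoid enzymes without either library and 0 type 2 genes lower without Apc Eif3h replicate 2.

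Replicate numbers did not pair the libraries (correlation of same-numbered deviations -0.142 to 0.236 over 12 pairs, 3 above 0.1). With the replicate block 8 genes were called in Apc Eif3h against WT, 7 in Apc against WT and 0 between Apc Eif3h and Apc. Depth limits Gfi1b and Il25, with at most 6 and 2 counts in a library.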
